A study of Mus musculus with 15 samples.

Results

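To describe how the genes of the NF-κB family were expressed in skin lacking OTULIN in keratinocytes, the 10 genes encoding its subunits and its inhibitors were read from 3′ mRNA sequencing of 3-week-old mice. They were chosen by name, and all 10 were found among the 55487 genes of the count table. The 5 subunit genes were *Nfkb1*, *Nfkb2*, *Rel*, *Rela* and *Relb*, the 3 genes of cytoplasmic inhibitors were *Nfkbia*, *Nfkbib* and *Nfkbie*, and the 2 genes of nuclear IκB proteins were *Nfkbiz* and *Bcl3*. There were 15 libraries. OTULIN E-KO mice carried Otulin fl/fl alleles with *K14-Cre*, in which the keratin 14 promoter drives the recombinase in keratinocytes, and gave 5 libraries from lesional skin (replicates 2, 5, 8, 11 and 14) and 5 from non-lesional skin (replicates 3, 6, 9, 12 and 15). The 5 WT libraries (replicates 1, 4, 7, 10 and 13) came from littermates, which carried the same floxed alleles and no Cre, so that floxed *Otulin* was shared by all groups. All mice were of 3 weeks of age and received no treatment named in the labels. The RNA was of skin tissue with all its cell types, whereas the deletion is of keratinocytes, and the sources used here do not say whether a lesional and a non-lesional library came from the same mouse. The methods name an RNA integrity number below 4 as a reason for exclusion and also for the samples that were kept.

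NF-κB transcription factors are dimers of Rel-homology proteins. In resting cells IκB proteins hold the dimers in the cytoplasm, and the IKK complex, which is recruited to linear ubiquitin chains formed at receptors such as TNFR1, marks IκB for destruction so that the dimers reach the nucleus. OTULIN is a deubiquitinase that cleaves linear ubiquitin chains. Several of the genes described here are themselves known targets of NF-κB, among them *Nfkbia*, whose product IκBα is the classical feedback inhibitor. The counts measure mRNA, and neither the position of the proteins in the cell nor their cleavage is visible in them.

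Sequence around the transcription start was examined for the NF-κB consensus motif, since several of these genes are known targets of the factors they encode or restrain. RefSeq promoter windows of GRCm38.p6, from 250 bases before to 50 bases after the start, were at hand for 7 of the 10 genes, and *Nfkb1*, *Relb* and *Nfkbiz* had none. The NF-κB consensus motif was searched on both strands, and overlapping matches were allowed. It matched in at least 1 window of 5 of the 7 genes (*Nfkb2*, *Rel*, *Nfkbia*, *Nfkbie* and *Bcl3*) and in no window of *Rela* or *Nfkbib*, whereas 2581 of 27025 genes with a window (9.55%) had a match. By window, 2779 of 32851 (8.46%) held the motif. A match describes letters and does not show binding. A stretch holding a match is given here for each of the 5 genes, in the direction of transcription, with the matching bases in capitals. The *Nfkbia* stretch runs from base -150 to -11 before the start at chr12:55492658-55492797 on the minus strand, the *Nfkbie* stretch over the same distances at chr17:45555550-45555689 on the plus strand, and the *Rel* stretch at chr11:23770980-23771119 on the minus strand. The shorter stretches are of *Nfkb2*, from -45 to -16 at chr19:46304692-46304721 on the plus strand, and of *Bcl3*, from -7 to 23 at chr7:19822733-19822762 on the minus strand.
Nfkbia: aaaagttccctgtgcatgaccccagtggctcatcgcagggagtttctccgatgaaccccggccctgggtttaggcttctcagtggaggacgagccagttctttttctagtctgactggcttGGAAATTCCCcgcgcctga
Nfkbie: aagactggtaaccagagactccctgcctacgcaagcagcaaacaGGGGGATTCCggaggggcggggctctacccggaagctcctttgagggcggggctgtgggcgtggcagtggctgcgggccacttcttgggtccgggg
Rel: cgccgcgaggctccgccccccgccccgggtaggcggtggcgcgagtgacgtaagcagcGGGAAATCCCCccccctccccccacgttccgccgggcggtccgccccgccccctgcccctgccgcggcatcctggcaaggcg
Nfkb2: cgtcacGGGAATTCCCCccctcggggggcc
Bcl3: cggcggcagGGGAAGTCCCgctgcccggcg
The capitals of *Rel* and *Nfkb2* hold a pair of matches shifted by 1 base against each other. A further *Nfkb2* match lay at -11, outside the stretch shown, and others lay in the windows of its other start sites.

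Libraries held 1962604 to 2567138 counts, and 13461 genes passed the filter on low counts over all 15. *Otulin* itself did not separate the groups: it had 12.2 to 28.3 CPM (counts scaled to library size) in WT, 21.3 to 30.7 in non-lesional and 19.0 to 27.2 in lesional libraries. A 3′ tag does not read a deletion elsewhere in the gene, and tags come from all cells of the skin, so the genotype of each library rests on its label. The 8 epidermal keratinocyte markers were all detected, with a summed level of 10593 to 14138 CPM in every library. Lesional replicates 2 and 11 stood apart from the other 13 libraries in the summed levels of the stress keratins and of a neutrophil list. Their stress keratins (*Krt6a*, *Krt6b*, *Krt16* and *Krt17*, induced in injured epidermis) summed to 12848 and 31612 CPM, against 657 to 2184 in the others, and their neutrophil list summed to 3004 and 5113 CPM against 28.8 to 245. Of the 10 genes on the neutrophil list, *Ly6g*, *Mpo* and *Csf3r* were at 0 in all libraries. Only 1 could be tested between lesional and WT skin in edgeR, and it was lower in lesional skin (log2 fold change -0.49). Between lesional and non-lesional skin 3 were tested. *S100a8* and *S100a9* were higher (4.78 and 5.28 in ascending order) and the other was lower (-0.17). Lesional replicate 11 also had 2932 CPM of skeletal muscle markers against 12160 to 30087 in the others. It was the lowest library for fibroblast markers too, with 16266 CPM against 25894 to 67739 in the others. The same held for endothelial markers, with 98.0 CPM against 140 to 227. Its keratinocyte markers summed to 14041 CPM. Over all genes, lesional replicates 11 and 14 were the most extreme: replicate 11 was the highest of the 15 libraries for 21.3% and the lowest for 22.2% of genes, replicate 14 for 13.5% and 15.6%, and each other library for at most 8.07% and 8.09%. The lesional results of the 10 genes and of the named pathway genes that rest on these libraries are also given without them. In bulk skin, fewer cells of a type and less RNA per cell cannot be told apart.

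All levels below are CPM after TMM normalization. QuantSeq reads the 3′ end of each transcript, so a transcript gives tags in proportion to its number and not its length, and levels of different genes are set side by side in tag CPM without a length correction. *Nfkbia* was by far the most abundant of the 10 transcripts in WT skin, with 469 ± 39.6 CPM (SD, n = 5), which was 8.92 times the next, *Nfkb1*, at 52.6 ± 5.88 CPM. The libraries of *Nfkbia* and *Nfkb1* did not overlap in any of the 3 groups. *Nfkb1*, *Nfkbib* (47.4 CPM), *Rela* (33.2 CPM), *Nfkb2* (32.4 CPM), *Nfkbiz* (30.3 CPM) and *Rel* (26.5 CPM) followed in WT. Each of these 6 overlapped its neighbour in that order, although all WT libraries had more *Nfkb1* than *Rel* and *Nfkbib* was above *Rela* within 5 of 5 WT libraries. *Relb*, at 7.69 CPM in WT, lay below *Rel* without overlap in each of the 3 groups. *Nfkbie* (2.82 CPM) and *Bcl3* (2.72 CPM) were the lowest, with overlapping libraries. The order was the same in non-lesional skin except for *Nfkbie* and *Bcl3*. There, *Nfkb1* lay above *Nfkbib* without overlap. In lesional skin, *Nfkb2* came before *Rela*, *Rel* before *Nfkbiz*, and *Bcl3* before *Relb* and *Nfkbie* in the order of the means, and all of these neighbours overlapped.

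**Figure D1:**
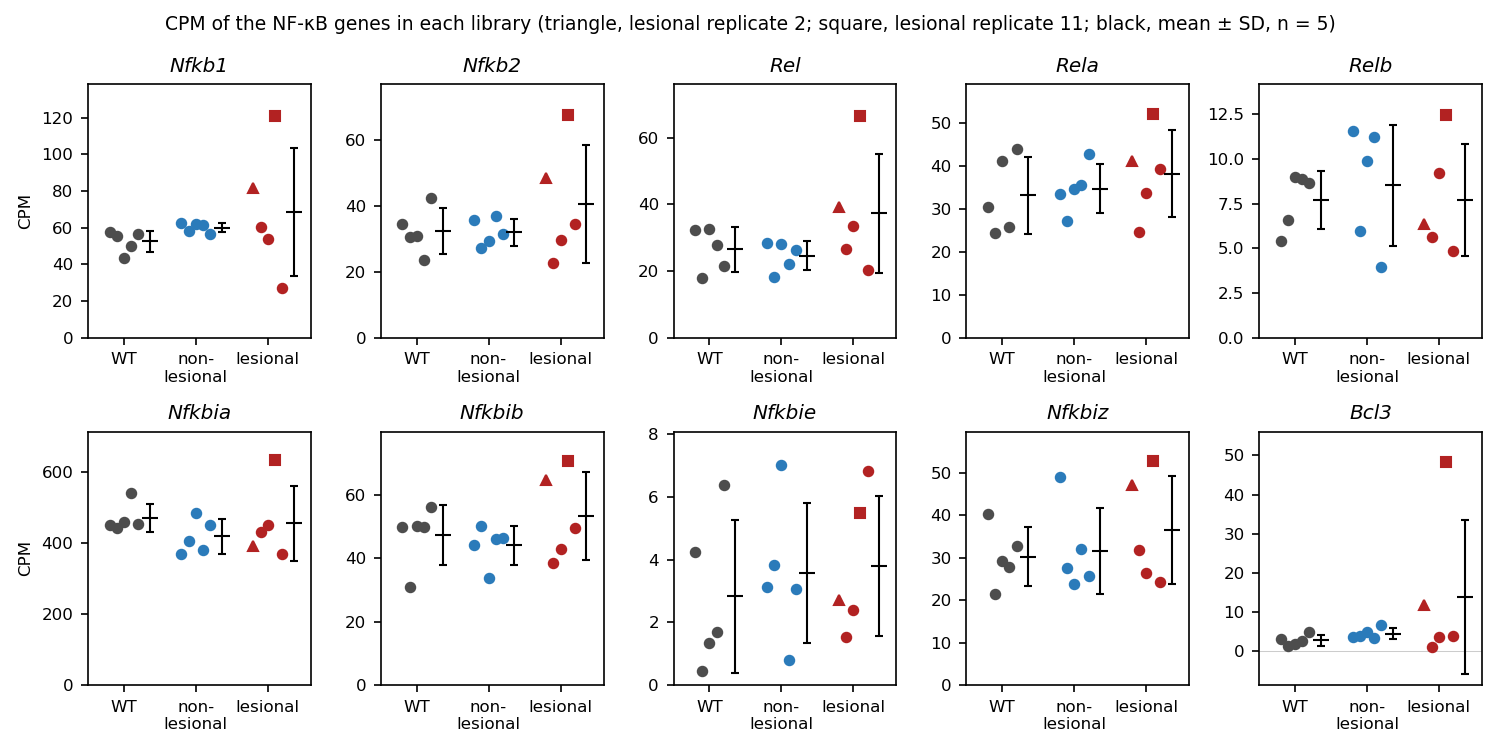
CPM of each of the 10 genes (y axes, each from 0 or below and with its own scale) in the 5 WT, 5 non-lesional and 5 lesional libraries (x axes); points are libraries, with lesional replicate 2 as a triangle and lesional replicate 11 as a square, and black marks give the mean ± SD. The groups overlap for every gene, and lesional replicate 11 is the highest point for all genes except *Nfkbie*.

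The subunit genes are described first. *Nfkb1* (chr3:135584655-135691547, minus strand) encodes p105, the precursor of p50. Its levels in WT libraries 1, 4, 7, 10 and 13 were 57.6, 55.5, 43.5, 49.8 and 56.4 CPM. In non-lesional libraries 3, 6, 9, 12 and 15 they were 62.8, 58.3, 61.8, 61.3 and 56.5 CPM. In lesional libraries 2, 5, 8, 11 and 14 they were 81.5, 60.6, 53.6, 121 and 27.2 CPM. Non-lesional libraries lay close together and 4 of the 5 were above all WT libraries, whereas lesional libraries included both the lowest and the highest value of all 15. The means were 52.6 ± 5.88 CPM in WT, 60.1 ± 2.66 CPM in non-lesional and 68.8 ± 35.0 CPM in lesional skin (SD, n = 5 each). In the two-sided exact permutation test over all regroupings of 5 against 5 libraries, whose smallest possible p is 0.0079, non-lesional differed from WT with p = 0.0159 (difference of 0.20 in mean log2 CPM, 5 of 5 non-lesional libraries above the WT median). This was the only one of 30 such tests (10 genes in 3 comparisons) with p under 0.05, and it was not adjusted for the 30. The exact test was run for the members only, so no share over all genes can be set beside this count. The exact test gave p = 0.0714, 0.0714 and 0.0635 without non-lesional replicate 3, 9 or 12, and p = 0.0476 with CPM of the library total. edgeR's quasi-likelihood test gave a log2 fold change of 0.19 ± 0.12 (SE) with an adjusted p of 0.9998. Between lesional and WT libraries the exact permutation p was 0.540. Lesional replicate 14 held the lowest value, and without it the log2 fold change between lesional and WT skin went from 0.39 to 0.59 (adjusted p = 0.641 in edgeR, with a p under 0.05 before adjustment). Over all fits with 1 library left out, this log2 fold change ran from 0.086 to 0.59.

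*Rel* (chr11:23736847-23770970, minus strand) encodes c-Rel, a subunit with a transactivation domain that is best known from lymphoid cells. WT libraries 1, 4, 7, 10 and 13 had 32.5, 17.9, 32.7, 27.9 and 21.4 CPM. Non-lesional libraries 3, 6, 9, 12 and 15 had 28.5, 18.3, 28.0, 22.03 and 26.3 CPM. Lesional libraries 2, 5, 8, 11 and 14 had 39.4, 26.7, 33.6, 66.7 and 20.4 CPM. Non-lesional libraries lay within the WT range, with 2 WT libraries above all of them, and 3 of 5 lesional libraries were above all non-lesional ones. The log2 fold change of *Rel* between lesional and non-lesional skin was 0.60 ± 0.28 (SE; 95% confidence interval 0.013 to 1.20). Its p in edgeR's quasi-likelihood test was under 0.05 before adjustment, and the adjusted p was 0.973. The two-sided exact permutation p was 0.135. Without lesional replicate 11 the log2 fold change was 0.29 (adjusted p = 0.999 in edgeR) with a lesional mean of 30.03 CPM, and without replicates 2 and 11 it was 0.13 (adjusted p = 0.993 in edgeR) with a mean of 26.9 CPM. Leaving out 1 library at a time gave 0.29 to 0.76.

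*Nfkb2* (chr19:46304320-46312385, plus strand) encodes p100, the precursor of p52 in the non-canonical pathway. It had 23.6 to 42.5 CPM in WT, 27.2 to 36.9 CPM in non-lesional and 22.6 to 67.7 CPM in lesional libraries, with means of 32.4 ± 6.85, 32.1 ± 4.10 and 40.6 ± 17.8 CPM. The non-lesional values lay within the WT range, and lesional replicates 2 (48.4 CPM) and 11 (67.7 CPM) were above all WT libraries. *Rela* (chr19:5637483-5648130, plus strand), the gene of the transactivating subunit p65, had 33.2 ± 8.94, 34.8 ± 5.60 and 38.2 ± 10.1 CPM in the 3 groups, and only lesional replicate 11 (52.2 CPM) exceeded all WT libraries. *Relb* (chr7:19606217-19629438, minus strand), the partner of p52, was read with 9 to 28 counts a library and had 7.69 ± 1.61, 8.52 ± 3.39 and 7.70 ± 3.12 CPM. At such counts a library is loosely measured: the 9 counts of non-lesional replicate 15 have an exact 95% Poisson interval of 4.12 to 17.1 counts, which covers counting error only. The share of *Nfkb1* in the counts of the 5 subunit genes was 34.8% ± 5.01 in WT, 37.7% ± 2.87 in non-lesional and 34.7% ± 8.14 in lesional libraries. That of *Relb* was 5.09% ± 1.17, 5.26% ± 1.85 and 4.09% ± 1.03. Summed over the 5 genes, lesional replicates 2 and 11 had 217 and 320 CPM, whereas the other 13 libraries had 126 to 173 CPM.

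Among the cytoplasmic inhibitors, *Nfkbia* (chr12:55489410-55492647, minus strand) supplied most counts. WT libraries 1, 4, 7, 10 and 13 had 450, 442, 459, 539 and 454 CPM. Non-lesional libraries 3, 6, 9, 12 and 15 had 369, 406, 483, 381 and 451 CPM. Lesional libraries 2, 5, 8, 11 and 14 had 392, 429, 450, 633 and 367 CPM. Below the lowest WT library lay 3 of 5 non-lesional and 3 of 5 lesional libraries, and lesional replicate 11 was the highest and replicate 14 the lowest of all. The log2 fold change between non-lesional and WT skin was -0.17 ± 0.10 (SE; 95% confidence interval -0.38 to 0.051), with an adjusted p of 0.9998 in edgeR's quasi-likelihood test and a two-sided exact permutation p of 0.103. Lesional replicate 2, which had high stress keratins, was below all WT libraries for this gene while it was above all of them for *Nfkb1*, *Nfkb2*, *Rel*, *Nfkbib*, *Nfkbiz* and *Bcl3*.

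*Nfkbib* (chr7:28758251-28767512, minus strand), which encodes IκBβ, had 47.4 ± 9.51 CPM in WT, 44.1 ± 6.17 in non-lesional and 53.3 ± 13.9 in lesional libraries. Lesional replicates 2 (64.7 CPM) and 11 (70.6 CPM) were above all others, and the remaining 3 lesional libraries lay within the WT range. *Nfkbie* (chr17:45555703-45563169, plus strand), which encodes IκBε, was read with 1 to 17 counts a library and had 0.437 to 6.39 CPM in WT, 0.801 to 7.01 CPM in non-lesional and 1.54 to 6.81 CPM in lesional libraries. It did not pass edgeR's filter in any comparison, its two-sided exact permutation p were 0.532, 0.405 and 0.849 (n = 5 per group), and no difference was found, which does not show that the groups had like levels. *Nfkbia* made up 90.3% ± 2.07 of the counts of the 3 inhibitors in WT, 89.7% ± 1.59 in non-lesional and 88.7% ± 2.65 in lesional libraries. The counts of the 3 inhibitors over those of the 5 subunits were 3.44 ± 0.54 in WT, 2.93 ± 0.41 in non-lesional and 2.83 ± 0.61 in lesional libraries, with overlapping ranges (2.99 to 4.34, 2.42 to 3.36 and 2.12 to 3.35). The lowest ratios were those of lesional replicates 2 (2.12) and 11 (2.22).

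*Bcl3* (chr7:19808462-19822770, minus strand) encodes a nuclear IκB protein that binds p50 and p52 homodimers, and it had the largest ratio of the highest to the lowest library of the 10 genes in lesional skin. WT libraries 1, 4, 7, 10 and 13 had 3.09, 1.31, 1.79, 2.53 and 4.89 CPM. Non-lesional libraries 3, 6, 9, 12 and 15 had 3.56, 3.83, 4.95, 3.20 and 6.57 CPM. Lesional libraries 2, 5, 8, 11 and 14 had 11.8, 1.03, 3.60, 48.3 and 3.89 CPM. All non-lesional libraries were above the WT median but only 2 were above the highest WT library, and in lesional skin replicates 2 and 11 were above every other library while replicate 5 was the lowest of all. The 48.3 CPM of lesional replicate 11 rest on 97 counts (exact 95% Poisson interval 78.7 to 118) and the 11.8 CPM of replicate 2 on 26 counts (17.0 to 38.1), whereas WT libraries had 3 to 13 counts. The means were 2.72 ± 1.39 CPM in WT, 4.42 ± 1.36 CPM in non-lesional and 13.7 ± 19.7 CPM in lesional skin (SD, n = 5 each). The lesional mean was 5.03 times that of WT, 1.86 times without replicate 11 (5.07 CPM) and 1.04 times without replicates 2 and 11 (2.84 CPM). *Bcl3* did not pass edgeR's filter, so it was compared with the two-sided exact permutation test, which gave p = 0.0714 for non-lesional against WT, p = 0.230 for lesional against WT and p = 0.579 for lesional against non-lesional. The first exact p became 0.0079 without WT replicate 13, which is the smallest that 5 against 4 libraries can give, the second became 0.0397 without lesional replicate 5, and in the third the difference in mean log2 CPM turned from 0.55 to -0.12 without lesional replicate 11. In edgeR without the filter, the log2 fold change between lesional and WT skin was 2.29 (adjusted p = 0.721). DESeq2's Wald test gave 2.35 with an adjusted p of 0.362, the p being under 0.05 before adjustment. With all 15 libraries in 1 fit *Bcl3* passed the filter, and edgeR gave 2.28 with an adjusted p of 0.619, again with a p under 0.05 before adjustment. Between lesional and non-lesional skin, edgeR without the filter gave 1.62 (adjusted p = 0.730). DESeq2's Wald test gave 1.66 (adjusted p = 0.990) and edgeR with all 15 libraries gave 1.62 (adjusted p = 0.878), both with a p under 0.05 before adjustment.

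*Nfkbiz* (chr16:55811375-55838899, minus strand) encodes IκBζ, a nuclear cofactor that is known in keratinocytes for the response to IL-17 and IL-36. WT libraries 1, 4, 7, 10 and 13 had 40.2, 21.4, 29.2, 27.9 and 32.7 CPM. Non-lesional libraries 3, 6, 9, 12 and 15 had 49.0, 27.6, 23.9, 32.0 and 25.8 CPM. Lesional libraries 2, 5, 8, 11 and 14 had 47.1, 31.8, 26.4, 52.7 and 24.3 CPM. The 3 highest values were those of lesional replicates 11 and 2 and of non-lesional replicate 3, and the other 7 OTULIN E-KO libraries lay within the WT range. The same 3 libraries were the highest for a list of 10 genes linked to IκBζ in keratinocytes, whose summed level was 3502 CPM in lesional replicate 2, 6445 CPM in lesional replicate 11 and 276 CPM in non-lesional replicate 3, and 14.4 to 33.6 CPM in WT. *Il17c* of that list was at 0 in all libraries, and 1, 1 and 3 of its genes could be tested in the 3 comparisons. The list contains *S100a8* and *S100a9*, which are also on the neutrophil list. The neutrophil list summed to 3004, 5113 and 245 CPM in lesional replicates 2 and 11 and non-lesional replicate 3. The part of neutrophils and of the 2 shared genes in these sums was not tested.

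In the fits across all genes, no member passed an adjusted p under 0.05. Of the 10 genes, 8 passed the filter in each comparison. Between non-lesional and WT skin, 0 of 8 were called, beside 0 of 13021 genes (0%), and at an unadjusted p under 0.05 edgeR called 0 of 8, beside 3.16% of all genes (1.85% higher and 1.31% lower). The 8 log2 fold changes ran from -0.17 (*Nfkbia*) to 0.19 (*Nfkb1*), with 4 above and 4 below 0. The library numbers run in consecutive triplets of 1 WT, 1 lesional and 1 non-lesional library, but the labels do not say that these belong together. Taken as triplets, non-lesional was above WT in 5 of 5 for *Nfkb1* and *Bcl3*. The same held for 4.09% of the genes tested, which do not include *Bcl3*. With the triplet as a replicate block edgeR called 8 genes, none of them a member (*Nfkb1* 0.20, adjusted p = 0.905). Between lesional and WT skin, 0 of 8 were called, beside 0 of 12918 genes (0%), and 0 of 8 at an unadjusted p under 0.05 in edgeR, beside 4.81% (3.24% higher and 1.56% lower). Here 7 of 8 were above 0, and all genes tested had a median of -0.0034 with 49.5% above 0. *Rel* was the highest at 0.50 (adjusted p = 0.926 in edgeR), then *Nfkb1* at 0.39, *Nfkb2* at 0.32, *Nfkbiz* at 0.27, *Rela* at 0.20, *Nfkbib* at 0.17 and *Relb* at 0.0099, and *Nfkbia* was at -0.042. With 1 library left out, *Rel* ran from 0.19 to 0.65, *Nfkb1* from 0.086 to 0.59 and *Nfkb2* from 0.062 to 0.48. *Nfkbiz* ran from 0.096 to 0.40, *Rela* from 0.067 to 0.33, *Nfkbib* from 0.047 to 0.27 and *Relb* from -0.22 to 0.13. Between lesional and non-lesional skin, 0 of 8 were called, beside 0 of 12864 genes (0%), and *Rel* was the 1 of 8 at an unadjusted p under 0.05 in edgeR, beside 4.22% of all genes (2.89% higher and 1.33% lower). With the triplet as a replicate block 0 of 8 were under 0.05, beside 5.19% of all genes, *Rel* being at 0.52 with an adjusted p of 0.834. The 2 comparisons with lesional skin share the lesional libraries, and those with WT share the WT libraries. For no member were the groups free of overlap in any comparison, beside 0.66%, 0.704% and 0.622% of the genes tested in the 3 comparisons.

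**Figure D2:**
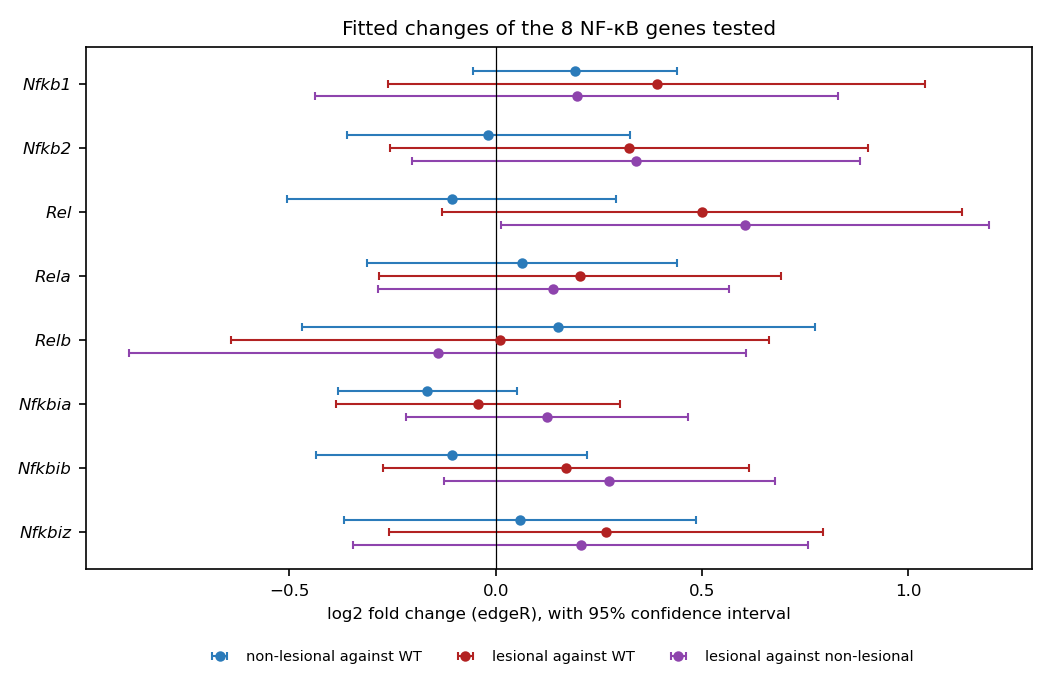
Fitted log2 fold change (x axis) of the 8 genes that passed the filter (y axis) in the 3 comparisons, with 95% confidence intervals from edgeR as bars. The interval of *Rel* between lesional and non-lesional skin (0.013 to 1.20) is the only one of 24 that does not include 0.

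The intervals bound what could have been missed. For *Nfkb1* between non-lesional and WT skin the interval was -0.055 to 0.44, for *Nfkbia* -0.38 to 0.051 and for *Rela* -0.31 to 0.44. Between lesional and WT skin they were wider, with -0.26 to 1.04 for *Nfkb1*, -0.26 to 0.90 for *Nfkb2*, -0.13 to 1.13 for *Rel*, -0.28 to 0.69 for *Rela*, -0.64 to 0.66 for *Relb*, -0.39 to 0.30 for *Nfkbia*, -0.27 to 0.61 for *Nfkbib* and -0.26 to 0.79 for *Nfkbiz*. The upper bounds of *Nfkb1* and *Rel* thus allow a change of more than 1 on the log2 scale in lesional skin, and that of *Nfkbia* does not. The lesional libraries spread more than the others for most members. The coefficient of variation of *Nfkb1* was 11.2% in WT, 4.42% in non-lesional and 50.9% in lesional libraries, that of *Nfkb2* 21.1%, 12.8% and 44.0%, and that of *Bcl3* 51.0%, 30.9% and 144%. Without lesional replicate 11 the lesional values were 40.1%, 32.3% and 91.6%, and without replicates 2 and 11 they were 37.3%, 20.7% and 55.5%.

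Lesional replicate 11 was the highest of the 15 libraries for 9 of the 10 genes, *Nfkbie* being the exception, beside 21.3% of 13461 genes. Relative to the WT mean of log2 CPM, all 10 genes were higher in this library, by 0.44 to 3.86 (median 0.93), whereas 48.5% of all genes were. Lesional replicate 2 had 8 of 10 genes above the WT mean, with a median of 0.53, beside 49.4% of all genes. In lesional replicates 5, 8 and 14, 3, 6 and 5 of the 10 genes were above the WT mean, with medians of -0.31, 0.047 and -0.093, beside 52.7%, 52.9% and 51.9% of all genes, and their stress keratins summed to no more than 968 CPM. At the other end, WT replicate 4 was the lowest of the 15 libraries for 5 of the 10 genes, beside 5.91% of all genes, and was above the WT mean for 1 of 10, beside 52.2% of all genes. Non-lesional libraries had 4 to 8 of the 10 genes above the WT mean, beside 51.3% to 52.6% of all genes.

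**Figure D3:**
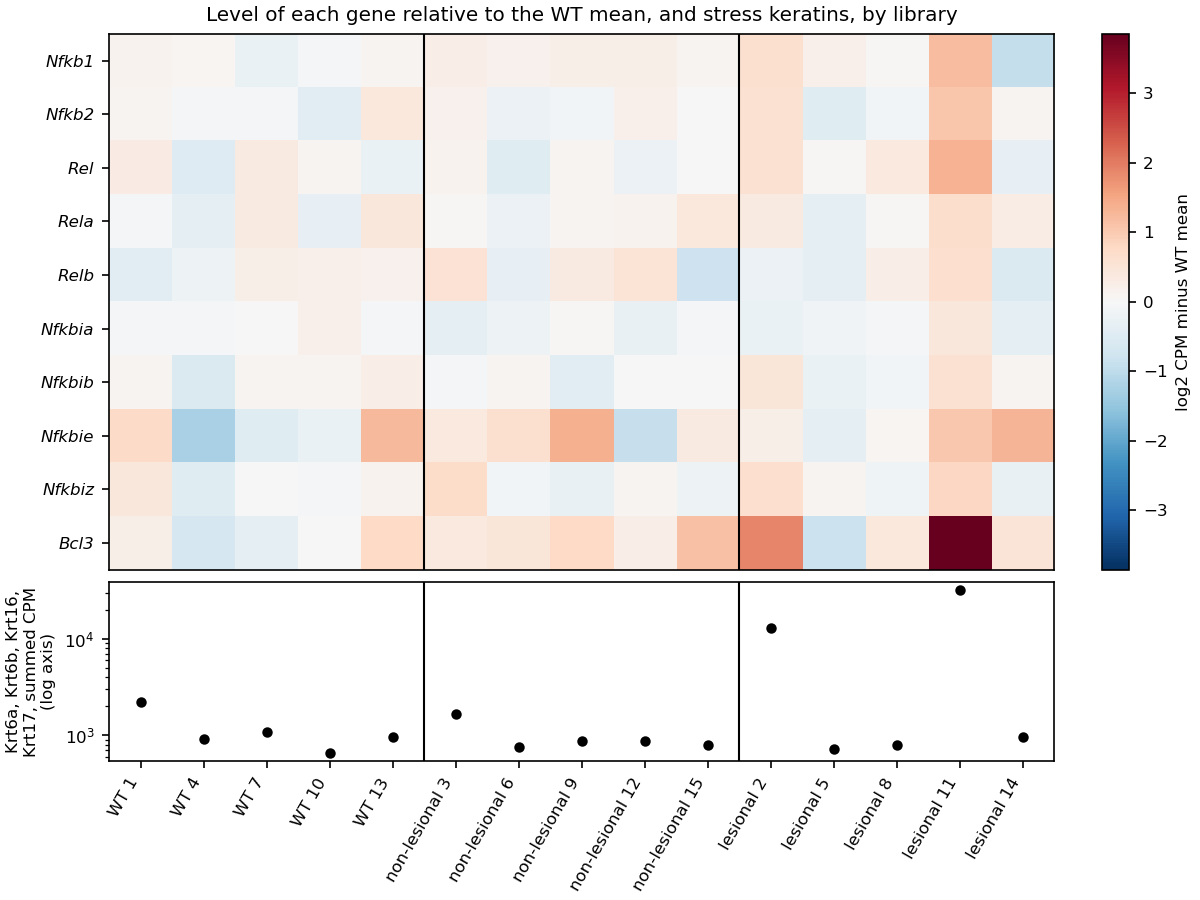
Upper panel, log2 CPM minus the WT mean (colour scale) for the 10 genes (rows) in the 15 libraries (columns); lower panel, summed CPM of the 4 stress keratins in the same libraries on a log axis. The column of lesional replicate 11 is above the WT mean for all 10 genes, and the stress keratins of lesional replicates 2 and 11 (12848 and 31612 CPM) are above those of all other libraries.

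Leaving out lesional replicate 11 brought the lesional means of 7 members to between 1.03 and 1.19 times the WT mean. The exceptions were *Bcl3* at 1.86 times, and *Relb* and *Nfkbia* at 0.847 and 0.874 times. Without replicates 2 and 11, the lesional mean was below that of WT for 7 members, *Nfkb1* (47.2 CPM, 0.897 times), *Nfkb2* (28.9 CPM, 0.892 times), *Rela*, *Relb*, *Nfkbia*, *Nfkbib* and *Nfkbiz* (27.5 CPM, 0.909 times), and near it for *Rel* (1.02 times) and *Bcl3* (1.04 times). *Nfkbie* stayed at 1.27 times on 3 to 14 counts. In edgeR without these 2 libraries, 2 of 9 genes tested were higher in lesional than WT skin and 1 of 8 higher than in non-lesional skin. Lesional replicates 2 and 11 also had more stress keratin and neutrophil list counts. Replicate 11 had lower muscle, fibroblast and endothelial marker levels. The part of these differences in the levels of the NF-κB genes was not tested.

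**Figure D4:**
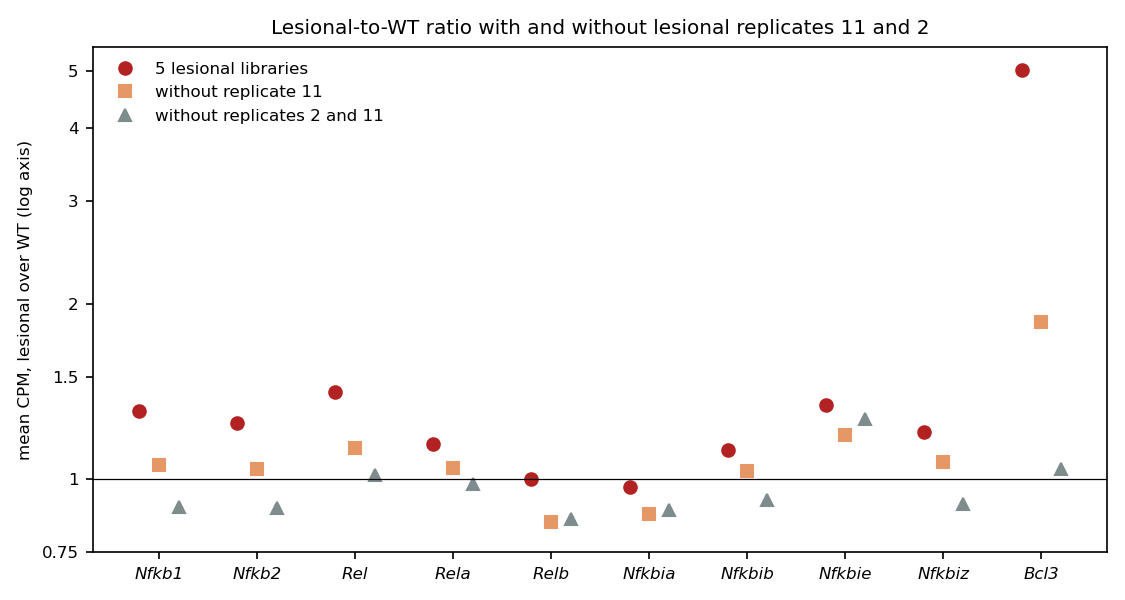
Mean CPM in lesional skin over mean CPM in WT (y axis, log scale, 1 marked by a line) for the 10 genes (x axis) with all 5 lesional libraries, without replicate 11 and without replicates 2 and 11. *Bcl3* goes from 5.03 to 1.86 and 1.04, and *Nfkb1* from 1.31 to 1.06 and 0.897.

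The other genes of the pathway were taken from lists. Of 12 genes of the IKK complex and NF-κB kinases, 12 were tested in each comparison and 0 had an adjusted p under 0.05 in edgeR. Their median log2 fold change was -0.0012 between non-lesional and WT and 0.039 between lesional and WT skin. Without lesional replicates 2 and 11 the latter was -0.15, with 3 of 12 higher, beside -0.0073 over all genes tested. At an unadjusted p under 0.05, 1 of 12 was called between lesional and non-lesional skin, beside 4.22% of all genes, and 0 in the other comparisons. This was *Map3k14*, which encodes NIK, the kinase that starts the non-canonical processing of p100. It had 10.3, 15.2, 19.5, 24.9 and 42.8 CPM in lesional replicates 5, 8, 14, 2 and 11 and 13.2 to 15.6 CPM in non-lesional libraries (log2 fold change 0.67 ± 0.31, adjusted p = 0.973 in edgeR). In WT it had 9.62 to 19.3 CPM. Lesional replicates 5 and 8 lay within the WT range, replicate 14 was just above it and replicate 11 was the highest. Without replicates 2 and 11 the log2 fold change against non-lesional skin was 0.082 (adjusted p = 0.993 in edgeR).

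Of 27 receptor and adaptor genes, 24, 23 and 24 were tested in the 3 comparisons, and *Traf2*, an adaptor of TNFR1 and TNFR2, was the only gene with an unadjusted p under 0.05: 1 of 24, 1 of 23 and 0 of 24, beside 3.16%, 4.81% and 4.22% of all genes. It had 3.06 to 8.87 CPM in WT, 5.95 to 10.9 CPM in non-lesional and 3.60 to 12.01 CPM in lesional libraries. The log2 fold change was 0.77 ± 0.33 against WT in non-lesional skin (adjusted p = 0.9998 in edgeR) and 0.88 ± 0.39 in lesional skin (adjusted p = 0.926 in edgeR), and the latter was 0.90 without lesional replicates 2 and 11. Above all WT libraries were 1 of 5 non-lesional and 3 of 5 lesional libraries. The latter were replicates 8, 11 and 14, with 12.01, 10.4 and 9.73 CPM. WT replicate 10 had 8.87 CPM, whereas the other WT libraries had 3.06 to 4.04 CPM. Of 17 genes of ubiquitin editors, 13 were tested, and *Tnip2*, which encodes an A20-binding protein, had 19.0 to 32.3 CPM in lesional and 16.0 to 21.0 CPM in non-lesional libraries (log2 fold change 0.43 ± 0.19, adjusted p = 0.973 in edgeR, and 0.35 without lesional replicates 2 and 11). This was 1 of 13 genes, beside 4.22% of all genes, and WT libraries had 15.7 to 25.2 CPM, a range that held 3 of the 5 lesional libraries. *Tnfaip3*, the gene of A20 itself, had 0 to 23 counts, with 11.4 CPM in lesional replicate 11 and at most 4.14 CPM elsewhere. Of 6 other IκB-like genes and modulators, 4 were tested and 0 had an unadjusted p under 0.05 in edgeR in any comparison, beside the same shares of all genes. *Nfkbid* of this list, a further nuclear IκB gene, had 0 to 10 counts, and its highest levels were 4.97 and 4.07 CPM in lesional replicates 11 and 2.

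Of 30 target genes of NF-κB, 12 were tested against WT in each case and 14 between lesional and non-lesional skin, and 6 had under 1 count a library on average. Of those tested, 7 of 12 were higher in non-lesional than WT skin (median log2 fold change 0.033) and 9 of 12 higher in lesional than WT skin (median 0.43, beside -0.0034 over all genes tested). Without lesional replicates 2 and 11, 4 of 12 were higher than in WT (median -0.16, beside -0.0073 over all genes tested). None had an adjusted p under 0.05 in edgeR, and 3 of 12 had an unadjusted p under 0.05 between lesional and WT skin, all higher, beside 3.24% of all genes tested. *Vcam1*, an adhesion molecule of activated endothelium, had 13.6, 9.25, 9.61, 18.4 and 14.1 CPM in lesional libraries 2, 5, 8, 11 and 14. In WT it had 6.96 to 8.52 CPM and in non-lesional libraries 4.25 to 11.5 CPM. All 5 lesional libraries were above all WT libraries, including those with low stress keratins. The log2 fold change was 0.74 ± 0.25, with an adjusted p of 0.926 in edgeR, and 0.49 ± 0.28 without lesional replicates 2 and 11. Groups without overlap in this direction were found for 0.449% of the genes tested.

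*Cxcl10*, a chemokine that attracts T cells, had 17.6, 4.11, 5.60, 78.1 and 3.40 CPM in lesional libraries 2, 5, 8, 11 and 14 and 0.437 to 8.27 CPM in WT (log2 fold change 2.48 ± 0.997, adjusted p = 0.926 in edgeR). *Mmp9*, a matrix metalloproteinase, had 19.9, 9.25, 5.20, 91.0 and 4.38 CPM in the same lesional libraries and 3.50 to 10.4 CPM in WT (1.88 ± 0.82, adjusted p = 0.926 in edgeR). *Il36g*, an epidermal cytokine of the IκBζ-linked list, had 50.7, 11.3, 11.2, 75.1 and 16.5 CPM and 9.29 to 17.9 CPM in WT (1.36 ± 0.53, adjusted p = 0.926 in edgeR). Against non-lesional skin, *Cxcl10* (2.41 ± 0.94) and *Il36g* (1.22 ± 0.54) also had an unadjusted p under 0.05 in edgeR, with an adjusted p of 0.973 each. Without lesional replicates 2 and 11, the log2 fold changes against WT were 0.18 for *Cxcl10*, -0.18 for *Mmp9* and 0.0038 for *Il36g*, and those against non-lesional skin were 0.12 for *Cxcl10* and -0.12 for *Il36g*. For these 3 genes lesional replicates 2 and 11 were above all WT libraries and the other 3 lesional libraries overlapped WT, as for *Bcl3*. The summed level of the 30 target genes was 714 and 1509 CPM in lesional replicates 2 and 11 and 330 to 440 CPM in the other 13 libraries.

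The genes whose levels most resembled those of a member over the 15 libraries were found by Spearman's rho of log2 CPM among 13461 genes, for the 7 members with a mean of at least 10 CPM. They were *Rbm47* (rho = 0.91, r = 0.88) and *Alas1* (0.91, 0.94) for *Nfkb1*, *2310046K23Rik* (0.89, 0.90) and *Mapk3* (0.88, 0.91) for *Nfkb2*, and *Dlx5* (0.92, 0.83) and *Gltp* (0.92, 0.90) for *Rel*. For *Rela* they were *Ifi30* (0.94, 0.74) and *Glmp* (0.91, 0.86), and for *Nfkbia* *Nuak2* (0.86, 0.82) and *Cx3cl1* (0.82, 0.54). For *Nfkbib* they were *Acp7* (0.90, 0.86) and *Dhcr7* (0.86, 0.78), and for *Nfkbiz* *Tor1aip1* (0.92, 0.71) and *Ide* (0.89, 0.78). These are descriptions of the same libraries, lesional replicate 11 included, and were picked as the highest of many.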

How the data were processed

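Total RNA of skin tissue was sequenced with the QuantSeq 3′ kit. Per the submitters' processing notes and the methods, the authors clipped adaptors (cutadapt 2.10), mapped reads to GRCm38 with Subread, kept primary matches (SAMtools 1.7-2) and deposited counts of matches to the exons of each gene (featureCounts 2.0.1). A match over several genes was counted for each. The printed counting options hold no strand option, which by default counts both strands, and the release of the gene annotation is not given in the sources used here. Reads of overlapping genes on opposite strands may thus be mixed for *Nfkb2* (11.6% of its exon bases with AC114539.1, 6.52% with *Psd*), *Nfkbib* (14.5% with *Ccer2*, 1.94% with *Sirt2*) and *Bcl3* (6.51% with Gm16175, at 0 counts). The deposited CPM are counts over the library total and were used only in a check against the counts. Of the rows, 92 spike-ins had 0 counts and were left out. PCR copies were not removed, so counts are not independent molecules.

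Each pair of groups was fitted on its own with edgeR 4.0.16 (R 4.3.3): TMM, filterByExpr, robust quasi-likelihood F-test, Benjamini-Hochberg over all genes tested, threshold 0.05. Single genes were compared with the two-sided exact permutation test of mean log2 CPM (prior count 2). The study gives 5 mice for its expression data but the sources do not tie each library to a mouse. The alternatives were DESeq2 1.42.0, limma 3.58.1 (voomWithQualityWeights), other size factors, no filter, a stricter filter (10 counts per sample), all 15 libraries in 1 fit, no robust estimation, leaving out each library, leaving out lesional libraries 2 and 11, and, chosen after seeing the data, a block of consecutive library numbers. The fit was tested on simulated data. The members and lists were chosen with earlier results of these data known. Named are all members, the genes of each pathway list with an unadjusted p under 0.05 (at most 3 per comparison), *Otulin* and the most similar genes. *Tnfaip3* and *Nfkbid* were named after their values were seen.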

Additional observations from a re-analysis of the deposited data

Results flagged for a closer look

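In 30 groups of 5 values (10 genes in 3 groups), 3 held a library whose gap to the nearest other was unusually large for its group by Dixon's criterion. Chance alone gives about 1 in 20 such groups. *Nfkbia* had 539 CPM in WT replicate 10, with a gap of 0.821 of the whole range, while the other WT libraries had 442 to 459 CPM. *Nfkbib* had 31.0 CPM in WT replicate 4 (gap 0.752 of the range), the library that was lowest for 5 of the 10 genes. *Bcl3* had 48.3 CPM in lesional replicate 11 (gap 0.773 of the range), the library with the highest stress keratins.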

How the results depend on the processing

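The groups share no replicate numbers. A fit with the triplet of consecutive numbers as a replicate block was chosen after seeing the data. Deviations from the group means correlated within triplets at 0.12 to 0.28 between non-lesional and WT libraries, where 5 of 5 matched their own triplet best, at -0.093 to 0.26 (3 of 5) between lesional and WT and at 0.11 to 0.36 (4 of 5) between lesional and non-lesional libraries. This is a hint from the data and not from the labels. The block gave 8, 0 and 0 genes past the threshold in these comparisons and turned *Relb* (-0.032, lesional against WT). Across all alternatives, 474 fold changes of the 10 members were computed, of which 473 had an adjusted p and 0 passed 0.05 (smallest 0.362, *Bcl3* with DESeq2). Of the 446 for members tested in the reported fit, 36 turned in direction. The number of all genes past the threshold, 0 in each comparison by edgeR, was 1 with DESeq2 and 18 without a filter between non-lesional and WT skin, and 14 with DESeq2 between lesional and WT skin. Leaving out each library gave 0 to 5 genes in the first comparison (5 without non-lesional replicate 6) and 0 to 0 in the comparisons with lesional skin. None of these genes was a member.

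With limma, the log2 fold change turned for *Nfkb2* (0.042, non-lesional against WT), *Relb* (-0.080, lesional against WT), *Nfkb1* (-0.011) and *Rela* (-0.0075, both lesional against non-lesional). Without lesional libraries 2 and 11 it turned, against WT, for *Nfkb1* (-0.16), *Nfkb2* (-0.17), *Rela* (-0.034), *Relb* (-0.21), *Nfkbib* (-0.13) and *Nfkbiz* (-0.15), and against non-lesional skin for *Nfkb1* (-0.35), *Nfkb2* (-0.15), *Rela* (-0.093), *Nfkbia* (-0.0094), *Nfkbib* (-0.016) and *Nfkbiz* (-0.21). The cause was not tested.

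With 1 library left out, the ranges that crossed 0 between non-lesional and WT were -0.11 to 0.10 for *Nfkb2*, -0.026 to 0.19 for *Rela* and -0.15 to 0.19 for *Nfkbiz*. Between lesional and WT they were -0.22 to 0.13 for *Relb* and -0.19 to 0.026 for *Nfkbia*. Between lesional and non-lesional they were -0.11 to 0.40 for *Nfkb1*, -0.027 to 0.19 for *Nfkbia*, -0.37 to 0.0036 for *Relb* and, as differences in mean log2 CPM, -0.12 to 1.05 for *Bcl3* and -0.21 to 0.35 for *Nfkbie*. Without lesional replicate 14, *Nfkb1* and *Rel* had an unadjusted p under 0.05 against WT in edgeR, with an adjusted p of 0.641 each. Depth limits the precision of *Nfkbie*, *Bcl3* and *Relb* most, which had 1 to 97 counts a library.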
